A study of Mus musculus with 24 samples.

Results

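Zinc finger protein (Zfp) genes form one of the largest families of DNA-binding proteins in the mouse, and their transcripts were followed here in dorsal root ganglia, which house the cell bodies of sensory neurons with their glia, in mice whose sciatic nerve had been crushed. Members were the symbols made of Zfp and a number, each represented by its most abundant transcript by mean raw count. The table held 250 such genes among 19571 transcripts, and 243 members had counts high enough to be tested, among 18606 transcripts tested in all. The 7 members left out (Zfp362, Zfp664, Zfp12, Zfp446, Zfp143, Zfp276 and Zfp677) averaged between 5.26 and 6.68 counts per library. The tested groups were ganglia of C57BL/6 mice (written C57B/L6 in the labels), 12 weeks old, that had received 2 mg/kg camptothecin in the peritoneum 30 min after the crush and were sampled at 18, 24 or 36 h, with 3, 4 and 3 libraries. They were set against ganglia sampled at the same times after crush and vehicle, with 3 libraries at each time. Camptothecin traps topoisomerase I on DNA, every group carried the nerve injury, and no uninjured ganglia were among the samples. Whole ganglia were used, so fewer cells of a type and less RNA per cell cannot be told apart.

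A C2H2 zinc finger is a short fold in which a pair of cysteines and a pair of histidines hold a zinc ion, and fingers in a row read successive bases of DNA. Many members also carry a KRAB box near the start of the protein, which recruits the corepressor Trim28 and, through it, the histone methyltransferase Setdb1 and heterochromatin protein 1. KRAB zinc finger genes lie in clusters that grew by gene duplication, and many silence retroelements or imprinted loci. Members without a KRAB box include RNA-binding proteins, ubiquitin ligases and regulators of neural development.

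By patterns in their GENCODE coding sequences, 110 members had a KRAB box with fingers, 7 had a SCAN box, a protein pairing domain, with fingers, and 124 had fingers and neither box. No C2H2 finger was found in 7 members, and 2 were pseudogenes without a coding sequence. A pattern can miss a box, so neither box means here that no match was found. KRAB members had a median of 12 fingers, against 9 in members with neither box, and their transcripts were poorer in G and C (median 43.7% against 48.12%). Chromosome 7 held 68 members, chromosome 17 held 33, chromosome 13 held 20 and chromosome 8 held 19. Runs of 3 or more members within 250 kb of each other formed 19 clusters with 110 members.

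The coding repeat that defines the family is shown for 7 members on which the results turn, the ones called at both 18 h and 36 h that have such a unit and the 2 that rose at 36 h. Each stretch is 84 bases of the coding strand, 5′ to 3′, in GRCm38 from GENCODE M21, and spans the first finger followed by the conserved linker that lies within 1 exon. Capitals mark the codons of the zinc-binding cysteine and histidine pairs.
Zfp26 (chr9:20437980-20438063, minus strand): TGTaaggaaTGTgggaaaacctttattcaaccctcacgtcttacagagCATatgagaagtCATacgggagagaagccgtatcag
Zfp157 (chr5:138456094-138456177, plus strand): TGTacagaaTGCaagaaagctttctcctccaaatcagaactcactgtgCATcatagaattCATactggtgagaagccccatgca
Zfp820 (chr17:21819710-21819793, minus strand): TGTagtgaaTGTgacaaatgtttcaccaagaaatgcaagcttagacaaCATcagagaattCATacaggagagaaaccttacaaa
Zfp943 (chr17:21992478-21992561, plus strand): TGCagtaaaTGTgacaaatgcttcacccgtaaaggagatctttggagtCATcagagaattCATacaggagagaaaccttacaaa
Zfp945 (chr17:22851871-22851954, minus strand): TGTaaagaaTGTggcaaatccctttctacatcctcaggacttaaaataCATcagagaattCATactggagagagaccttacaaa
Zfp651 (chr9:121767512-121767595, plus strand): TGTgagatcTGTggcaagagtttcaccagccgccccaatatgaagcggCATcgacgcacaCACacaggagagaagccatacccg
Zfp940 (chr7:29845641-29845724, minus strand): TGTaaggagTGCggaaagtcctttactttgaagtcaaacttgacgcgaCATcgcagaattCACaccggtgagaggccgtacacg
Over the 21 pairs of these units, between 48.8% and 82.1% of bases were identical (median 60.7%), with Zfp820 and Zfp943 the closest pair, and 26 of the 84 positions held 1 base in all 7. A unit of this kind was found in 189 of 248 members with a coding sequence, up to 18 times in 1 member. Such repeats can make reads match several genes. Of the 50-base windows of a member's transcript, a median of 0.106% also occurred in a transcript of another gene. For 117 members no window did, for 49 more than 5% did, and for 20 more than 20% did.

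Members spanned a wide range of levels. As CPM, a transcript's count scaled to a common library total, averaged over all libraries, the tested members had a median of 9.48 CPM, 14 lay above 100 CPM and 85 below 5 CPM. The 5 highest were Zfp871, a KRAB member, at 521 CPM, Zfp451, known in human as a ligase for the small modifier SUMO, at 440 CPM, Zfp106, an RNA-binding protein needed by motor neurons, at 237 CPM, Zfp91, a ubiquitin ligase, at 194 CPM, and Zfp706 at 158 CPM. These 5 held 24% of the members' summed level. Per kilobase of transcript, Zfp871 (48.1 CPM per kb), Zfp451 (37.1), Zfp706 (35.8) and Zfp91 (35.1) held the first 4 places, and Zfp106 (26.1) was in place 9.

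Summed over all tested members, the level lay between 5918 and 6317 CPM in the 10 camptothecin libraries (median 6092), against 6127 to 7518 CPM in the 9 vehicle libraries (median 7080). The ranges overlapped. Camptothecin libraries held 6.64 to 15 M counts and vehicle libraries 3.62 to 8.32 M, and at each time every camptothecin library was deeper than every vehicle library. A second difference went with the arms. The rank correlation across transcripts between GC content and a library's deviation in level ran between -0.0738 and 0.334 in camptothecin libraries, against -0.321 and 0.0665 in vehicle libraries. Zfp members were poor in G and C as a family, with a median of 45.34% against 48.32% over all transcripts. The camptothecin counts at 18 h, at 36 h and in the average are therefore also given with a correction for each library's trend with GC content. With all libraries thinned to 1 depth, 8 members were called at 18 h, 17 at 36 h and 40 in the average over times. These held 5 of the 8, 12 of the 16 and 39 of the 44 called at full depth. No share over all transcripts is given for the thinned counts.

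At 18 h, 8 members fell in camptothecin ganglia relative to vehicle and none rose (edgeR quasi-likelihood test, Benjamini-Hochberg adjusted p under 0.05 over all transcripts). They were the KRAB members Zfp26, Zfp943, Zfp820, Zfp157, Zfp945 and Zfp763, with Zfp959 and Zfp207. In Zfp959 the patterns found fingers and neither box. Zfp207 is a microtubule-binding protein that helps to build the spindle and also acts in splicing. The 8 are 3.29% of members, against 1.26% of all transcripts called lower, and 0% against 0.317% were called higher. Unadjusted p lay under 0.05 for 45 members lower and 9 higher, and for 2772 of all 18606 transcripts in either direction. DESeq2 called 20 members lower and 6 higher. No share over all transcripts is given for counts by DESeq2 or with a library left out, here or below. Those counts are therefore not read as a result about the family. The members' median log2 fold change was -0.167, against -0.020 over all transcripts.

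Zfp26 had 30.8, 29.3 and 28.5 CPM in camptothecin ganglia at 18 h, against 91.1, 90.8 and 64.9 CPM in vehicle ganglia. Every camptothecin library lay below every vehicle library. The log2 fold change was -1.47 ± 0.30 (SE, adjusted p = 0.0293). Its gene lies on chromosome 9 (chr9:20428449-20460162, minus strand) in a cluster with Zfp560, Zfp426, Zfp266 and Zfp846. Zfp945 (chr17:22846697-22867134) had 16.6, 14.1 and 15.9 CPM in camptothecin ganglia, against 39.7, 46.8 and 30.1 CPM in vehicle ganglia (-1.32 ± 0.32, adjusted p = 0.0394). Zfp820 (chr17:21816885-21845772) had 3.48, 5.41 and 5.67 CPM in camptothecin ganglia, against 10.8, 12.2 and 10.9 CPM in vehicle ganglia (-1.20 ± 0.27, adjusted p = 0.0331). Neither overlapped between the groups. Zfp943 (chr17:21962552-22071168) averaged 14.0 ± 0.331 CPM in camptothecin ganglia and 31.0 ± 9.50 CPM in vehicle ganglia (SD, n = 3 each; -1.14 ± 0.25, adjusted p = 0.0323).

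Zfp207 (chr11:80383279-80405733) had 19.2, 19.6 and 31.6 CPM in camptothecin ganglia at 18 h, against 45.0, 74.6 and 55.2 CPM in vehicle ganglia (-1.31 ± 0.28, adjusted p = 0.0293). The groups did not overlap. The transcript that stands for this gene is annotated as subject to nonsense-mediated decay, not as the main coding form. All 5 of its transcripts in the table were lower in the average over times, and 3 of the 5 passed the test. Zfp959 (chr17:55892093-55898928) had 2.72, 2.80 and 3.09 CPM in camptothecin ganglia, against 7.01, 15.1 and 7.01 CPM in vehicle ganglia (-1.75 ± 0.40, adjusted p = 0.0354). One vehicle library stood well above the other pair, and 21.3% of this transcript's windows also occur in another gene. Zfp157 fell by 0.69 ± 0.16 on the log2 scale (adjusted p = 0.0356) and Zfp763 by 0.86 ± 0.21 (adjusted p = 0.0427).

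Of the members that were higher at 18 h, those with the smallest p did not pass. Zfp772, a KRAB member, averaged 47.9 CPM in camptothecin ganglia and 34.3 CPM in vehicle ganglia (log2 fold change 0.48, adjusted p = 0.0561). Zfp3 and Zfp866 had log2 fold changes of 1.04 and 0.68, with adjusted p of 0.0795 and 0.0923, and none of the 3 overlapped between the groups. In the authors' deposited table, whose log2 fold changes come from variance-stabilised values, Zfp772 passed at 18 h (limma, log2 fold change 0.388, adjusted p = 0.0454). The 8 members above passed there as lower. Over the whole of that table, 261 of 19571 transcripts were lower and 102 higher at 18 h.

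The 18 h calls rested on few libraries. With the GC correction 0 of the 8 were called, with adjusted p between 0.0727 and 0.446 and with all 8 still lower, while 0.0699% of all transcripts were called lower and 0.0215% higher. Without camptothecin replicate 2 or 3, or vehicle replicate 1 or 3, 0 members were called, without camptothecin replicate 4 1 member was (Zfp207), and without vehicle replicate 4 12 were.

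**Figure D1:**
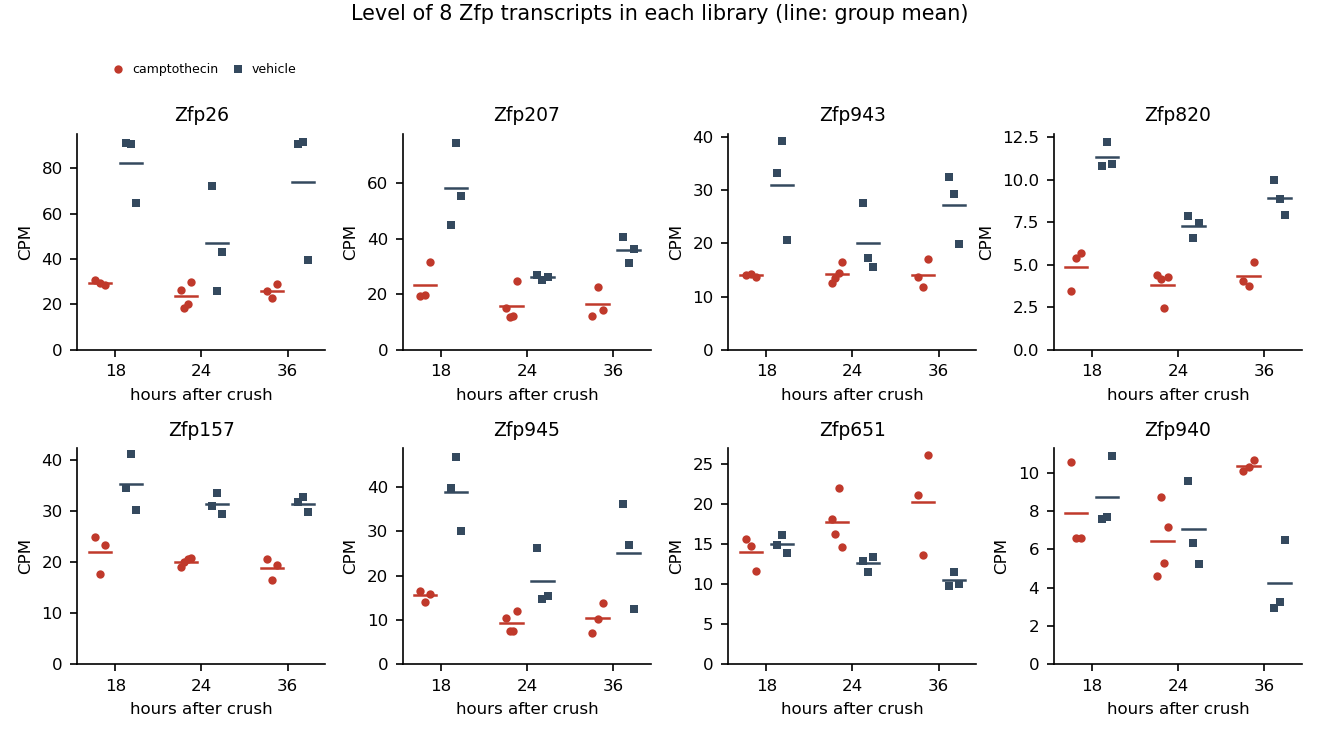
Level in CPM (vertical axes, linear from 0) of 8 Zfp transcripts at 18, 24 and 36 h after crush, with 1 point per library, red circles for camptothecin, dark squares for vehicle and a line at each group's mean. The first 6 panels show the members called lower at both 18 h and 36 h, with camptothecin means below vehicle means at every time, and the last 2 show Zfp651 and Zfp940, where camptothecin lay above vehicle at 36 h.

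At 24 h no member passed the test in either direction (edgeR), and none of the 18606 transcripts did (0% higher and 0% lower). Unadjusted p lay under 0.05 for 28 members lower and 9 higher, and for 1485 of all 18606 transcripts in either direction. DESeq2 called 4 members lower and 0 higher. Zfp157 had the smallest p, with 18.9, 19.9, 20.6 and 20.8 CPM in camptothecin ganglia, against 30.9, 33.5 and 29.4 CPM in vehicle ganglia (-0.64 ± 0.14, adjusted p = 0.216). Its groups did not overlap, and neither did those of Zfp40 (-0.83 ± 0.22, adjusted p = 0.256) and Zfp820 (-0.93 ± 0.25, adjusted p = 0.256). On the higher side Zfp317, Zfp236 and Zfp592 had the smallest p, with log2 fold changes of 0.61, 0.43 and 0.28 and adjusted p of 0.463, 0.487 and 0.509. The vehicle libraries of this time were themselves uneven. Zfp26 had 72.4 CPM in vehicle replicate 1, but 26.1 and 42.9 CPM in replicates 2 and 3, and replicate 2 lay within the 18.5 to 29.9 CPM of the camptothecin libraries.

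At 36 h, 14 members fell in camptothecin ganglia and 2 rose, 5.76% and 0.823% of members, against 2.32% and 0.188% of all transcripts. The list again began with Zfp26 and held 6 of the 8 members called at 18 h (Zfp26, Zfp207, Zfp943, Zfp820, Zfp157 and Zfp945). The other 8 were Zfp638, Zfp560, Zfp420, Zfp367, Zfp451, Zfp81, Zfp942 and Zfp655. All 14 were also lower at 18 h and 24 h, as were 97.9% of the 431 transcripts called lower at 36 h. Unadjusted p lay under 0.05 for 44 members lower and 9 higher, and for 2911 of all 18606 transcripts in either direction. DESeq2 called 25 members lower and 2 higher. The authors' deposited table held 11 members lower and 2 higher at 36 h, among 369 and 36 of 19571 transcripts. Zfp943, Zfp945 and Zfp655 were not among those 11. The members' median log2 fold change was -0.042, against -0.019 over all transcripts.

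Zfp26 had 26.1, 22.9 and 28.8 CPM in camptothecin ganglia at 36 h, against 90.8, 91.6 and 39.5 CPM in vehicle ganglia (-1.50 ± 0.30, adjusted p = 0.0102). The groups did not overlap, but vehicle replicate 4 lay much nearer to camptothecin than the other vehicle libraries, and it was also the deepest vehicle library of this time at 5.75 M counts. Zfp420, whose human counterpart ZNF420 restrains p53, had 1.87, 0.887 and 0.93 CPM in camptothecin ganglia, against 5.37, 5.89 and 4.38 CPM in vehicle ganglia (-2.05 ± 0.45, adjusted p = 0.0174). This was the largest fall among the called members, in a transcript annotated as processed and not as coding. Zfp367 had 65.8, 73.4 and 74.9 CPM in camptothecin ganglia, against 247, 210 and 97.7 CPM in vehicle ganglia (-1.37 ± 0.32, adjusted p = 0.0253). Its vehicle replicate 4 was again the lowest of the vehicle libraries.

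Among highly expressed members, Zfp638, a nuclear RNA- and DNA-binding protein whose human counterpart silences unintegrated retroviral DNA, averaged 105.1 ± 7.95 CPM in camptothecin ganglia and 180.1 ± 36.8 CPM in vehicle ganglia at 36 h (SD, n = 3 each; -0.77 ± 0.16, adjusted p = 0.0118). Zfp451 averaged 370.2 ± 23.9 CPM in camptothecin ganglia and 557.3 ± 109.1 CPM in vehicle ganglia (-0.59 ± 0.14, adjusted p = 0.0254). Neither overlapped between the groups. Zfp945 was called although its groups overlapped, since its highest camptothecin library at 13.8 CPM exceeded its lowest vehicle library at 12.5 CPM. The test that called the members used these same libraries, so a lack of overlap is no separate support. The share of all transcripts without overlap is not given here.

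The 2 members that rose at 36 h did not pass at the earlier times. Zfp651 (chr9:121759330-121771742) had 21.1, 13.6 and 26.1 CPM in camptothecin ganglia, against 9.76, 11.5 and 10.0 CPM in vehicle ganglia (0.96 ± 0.23, adjusted p = 0.0245). At 18 h it had 15.6, 14.7 and 11.6 CPM in camptothecin ganglia and 14.9, 16.1 and 13.8 CPM in vehicle ganglia, values that overlap. At 24 h its 4 camptothecin libraries, at 14.6 to 22.0 CPM, all lay above its 3 vehicle libraries, at 11.5 to 13.3 CPM, but it was not called (adjusted p = 0.516). Zfp940 (chr7:29833620-29853669), a KRAB member, had 10.1, 10.3 and 10.7 CPM in camptothecin ganglia at 36 h, against 2.93, 3.24 and 6.48 CPM in vehicle ganglia (1.25 ± 0.34, adjusted p = 0.0495). Its camptothecin libraries were alike, and the 36 h vehicle libraries lay below the 7.59, 7.67 and 10.9 CPM of vehicle ganglia at 18 h. Zfp395, the next by p on this side, did not pass (adjusted p = 0.147).

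At this time too, the calls depended on the GC correction and on single libraries. With the GC correction 0 of the 16 members were called (adjusted p between 0.0782 for Zfp940 and 0.954 for Zfp81), while 0.279% of all transcripts were called lower and 0.0215% higher. The directions of all 16 held. Without camptothecin replicate 1, or vehicle replicate 2 or 3, 0 members were called, without camptothecin replicate 2 5 were, without camptothecin replicate 3 4 were, and without vehicle replicate 4 27 were.

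Averaged over the 3 times, which uses all 19 libraries, 40 members fell and 4 rose under camptothecin, 16.5% and 1.65% of members, against 7.69% and 2.59% of all transcripts. All 40 were lower at each of the 3 times, a direction that the average itself favours. Among all 1431 transcripts called lower, 99.2% were. The largest falls were in Zfp26 (-1.32 ± 0.17, adjusted p = 4.76e-05), Zfp945 (-1.20 ± 0.18, adjusted p = 0.000156), Zfp420 (-1.13 ± 0.25, adjusted p = 0.0043), Zfp207 (-1.06 ± 0.16, adjusted p = 0.000123) and Zfp820 (-1.06 ± 0.15, adjusted p = 9.7e-05). The rises were smaller. Zfp651 rose by 0.46 ± 0.13, Zfp251 by 0.41 ± 0.12, Zfp866 by 0.40 ± 0.11 and Zfp772 by 0.26 ± 0.07 on the log2 scale, with adjusted p between 0.0202 and 0.0312. Leaving out any 1 library left between 37 and 49 members called.

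**Figure D2:**
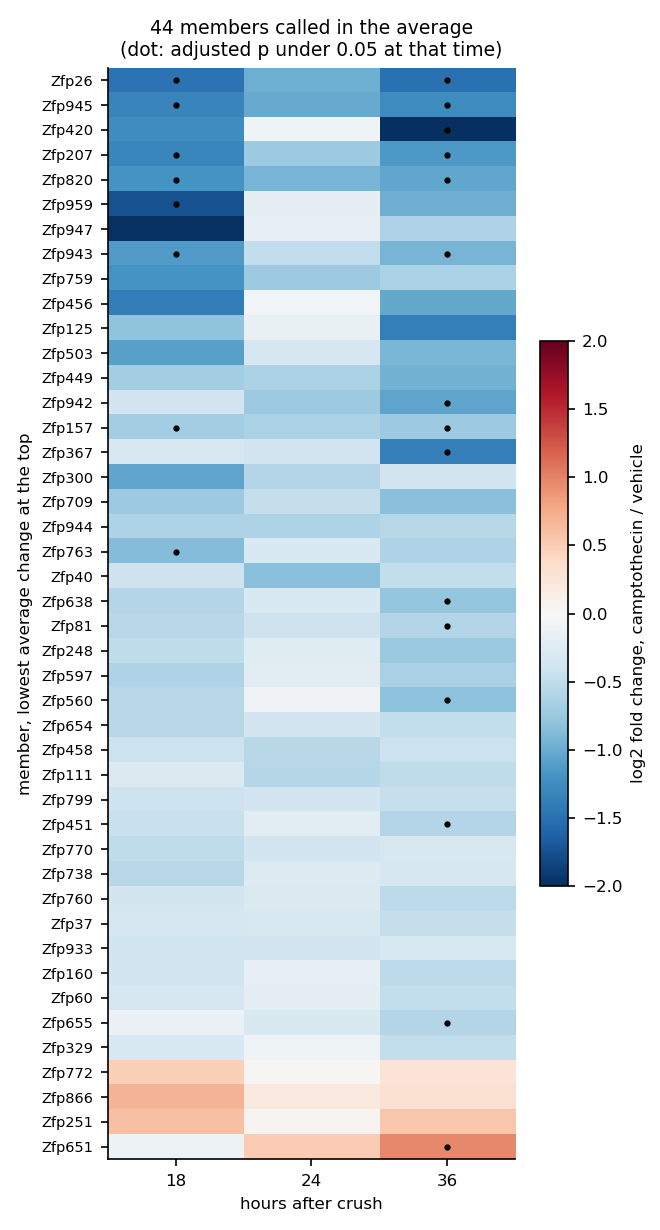
Log2 fold change of camptothecin over vehicle at 18, 24 and 36 h (columns) for the 44 members called in the average over times (rows, ordered by the average change), in blue where lower and red where higher, with colours capped at -2 and 2 and a dot where the member passed at that time. The 40 lower members are blue in all columns, and the 4 higher ones stand at the bottom.

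The summed level of the 40 lower members lay between 1514 and 1702 CPM in the 10 camptothecin libraries (median 1576), against 1764 to 2762 CPM in the 9 vehicle libraries (median 2345). That separation follows from how the 40 were chosen. Within the arms, however, the choice does not fix the order, and there the spread was unequal, since camptothecin libraries were close to each other and vehicle libraries were not. The lowest vehicle library, replicate 2 at 24 h, was also the deepest of its arm at 8.32 M counts. The summed level went down with depth among the 9 vehicle libraries (Pearson r = -0.721, exact permutation p = 0.0263; Spearman rho = -0.617, exact permutation p = 0.0857) and among the 10 camptothecin libraries (r = -0.55, permutation p = 0.108; rho = -0.673, permutation p = 0.0396). The sum over all members gave r = -0.641 in vehicle (exact permutation p = 0.0536; rho = -0.533) and, in the other direction, r = 0.403 in camptothecin (permutation p = 0.252; rho = 0.316). None of the 4 relations computed, over 2 arms and 2 sums, passed adjustment (smallest adjusted p = 0.105 for r and 0.159 for rho, two-sided). Without the 2 libraries farthest from the median depth, r for the lower members was -0.495 in vehicle and -0.631 in camptothecin. The 3 deepest vehicle libraries were all taken at 24 h, so depth and time after crush cannot be told apart in these pooled values. Within each of the 6 groups, of 3 or 4 libraries, the deepest library had the lowest sum of the lower members.

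GC content went with the direction of change inside the family. Across the 243 members the rank correlation between GC content of the transcript and the average log2 fold change was 0.572, and across all 18213 transcripts with a known sequence it was 0.465. Genes are not independent replicates, so both values only describe these data. The 40 lower members had a median GC content of 39.4%, the 4 higher ones 49% and the uncalled ones 46.6%. The length of the gene in the genome also went with the average change, more weakly. Its rank correlation was -0.27 across members and -0.182 across all transcripts. Median lengths were 22.1 kb in the lower members, 16.1 kb in the higher ones and 16.4 kb in the uncalled ones. The part of gene length was not tested. In the quartile of all transcripts poorest in G and C, up to 43.9%, 38 of 105 members fell, against 893 of 4448 other transcripts (20.1%), with median log2 fold changes of -0.344 and -0.285. In the next quartile 1 of 54 members fell (1.85%), against 305 of 4499 other transcripts (6.78%). In the richest quartile the counts were 1 of 38 members (Zfp503) and 51 of 4516 other transcripts (1.13%). Members had more counts than other transcripts (median 71.4 against 32.5 per library over all transcripts), which bears on how often a change of given size passes, and the part of this was not tested.

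**Figure D3:**
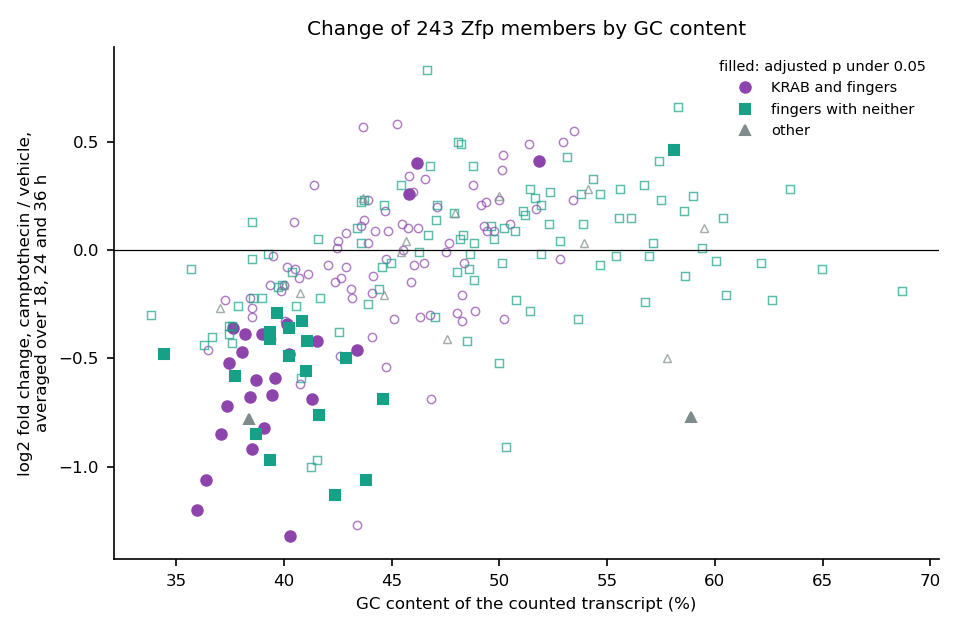
Average log2 fold change of camptothecin over vehicle (vertical axis) against GC content of the counted transcript in percent (horizontal axis) for the 243 tested members, purple circles for KRAB members, green squares for members with fingers and neither box and grey triangles for the rest, filled where adjusted p was under 0.05. Nearly all filled symbols below 0 lie left of 45% GC, and the rank correlation over all points is 0.572.

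**Figure D4:**
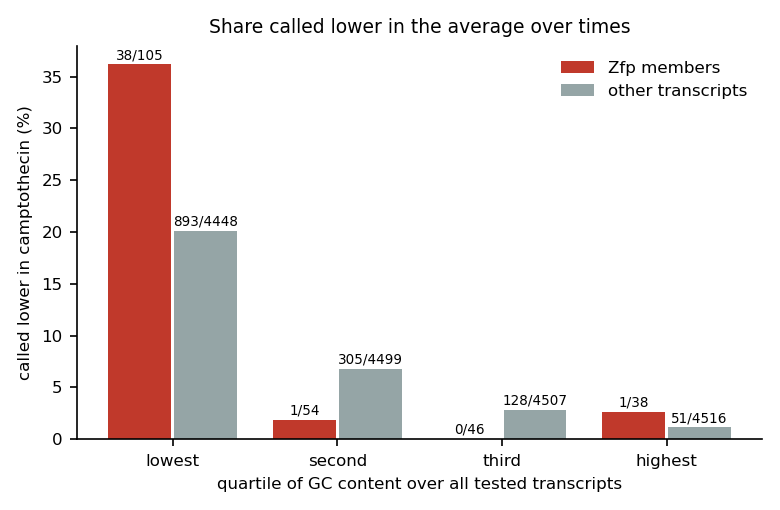
Share of transcripts called lower in camptothecin in the average over times (vertical axis, percent) in 4 quartiles of GC content, red for Zfp members and grey for other transcripts, with called and tested numbers over the bars. The lowest quartile holds 38 of the 40 lower members (38 of 105 members, against 20.1% of other transcripts).

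With the GC correction, 6 members were lower and 2 higher in the average, 2.47% and 0.823% of members. Over all transcripts those shares were 2.98% and 1.13%, close to those of the members. The 6 were Zfp207 (-0.92 ± 0.14, adjusted p = 0.000511), Zfp26 (-1.01 ± 0.16, adjusted p = 0.000816), Zfp503 (-0.95 ± 0.17, adjusted p = 0.00157), Zfp157 (-0.43 ± 0.09, adjusted p = 0.00873), Zfp945 (-0.67 ± 0.17, adjusted p = 0.0297) and Zfp420 (-0.92 ± 0.25, adjusted p = 0.0392). Zfp866 (0.47 ± 0.12, adjusted p = 0.02) and Zfp772 (0.34 ± 0.08, adjusted p = 0.0161) were the 2 higher ones. The members' median in the average was -0.078 without the correction and 0.053 with it, so the sign of the family's small shift depended on it, and 4 of the 40 lower members (Zfp654, Zfp760, Zfp329 and Zfp160) changed direction without passing. Zfp503, a regulator of striatal development that lacks a C2H2 pattern, stood apart from the rest, as its transcript is rich in G and C (58.9%). It averaged 16.5 ± 4.30 CPM in camptothecin ganglia at 18 h and 35.2 ± 11.0 CPM in vehicle ganglia (SD, n = 3 each).

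KRAB members made up 21 of the 40 that fell and 108 of the 243 tested. Of 108 tested KRAB members 19.4% fell and 2.78% rose in the average. Of 119 members with fingers and neither box 14.3% fell and 0.84% rose. The medians were -0.124 and -0.059. Over all transcripts 7.69% fell and 2.59% rose, so the share of KRAB members that rose was close to that of all transcripts. Within the quartile poorest in G and C the shares lay closer, with 21 of 55 KRAB members lower (38.2%) and 17 of 50 other members (34%). The medians there were -0.344 and -0.340, and 20.4% of all transcripts of that quartile were called lower. None of the 7 members with a SCAN box passed. The difference between the classes was not tested.

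Calls were unevenly spread over the genome before the GC correction. On chromosome 17, 13 of 32 tested members fell (40.6%, against 7.69% of all transcripts) and 0 rose, with a median of -0.290. Of the 13, 1 (Zfp945) was still called with the GC correction, and the median of the 32 was 0.045. On chromosome 7, with 66 tested members, 4 fell and 1 rose (median -0.034). With the GC correction 1 was called lower and 1 higher there (median 0.015). On chromosome 15 all 7 members had positive values (0.098 to 0.664), with 1 past the threshold (Zfp251). With the GC correction 0 of these 7 values were negative and the median was 0.271, but 0 members were called. The highest share of calls was in a cluster of 11 KRAB genes on chromosome 17 (chr17:21383748-22361400) that holds Zfp820, Zfp942, Zfp943, Zfp944, Zfp947 and Zfp760. In it 6 of 10 tested members fell and all 10 had negative values, from -1.06 to -0.128 with a median of -0.495. None of the 6 (0 by edgeR) was called with the GC correction, 5 of the 10 values were negative and the median was -0.077. The second chromosome 17 cluster (chr17:32765496-33631779) held Zfp871, Zfp81, Zfp763 and Zfp799 among 11 members, of which 3 fell (median -0.030). With the GC correction 0 of the 3 were called (median 0.162). On chromosome 13 a cluster of 9 members (chr13:67038596-67687071) had 4 lower (Zfp759, Zfp458, Zfp456 and Zfp738; median -0.391), and 0 of the 4 were called with the GC correction (median -0.007). A cluster of 8 on chromosome 7 (chr7:24081924-24316666) went the other way, with 7 of 8 values above 0 and a median of 0.227, although its only call was the fall of Zfp111. With the GC correction 1 of its 8 values was negative, the median was 0.195 and 0 members were called. Neighbours were thus not uniform, and members of a cluster share sequence and base composition, so they are no independent evidence of each other.

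**Figure D5:**
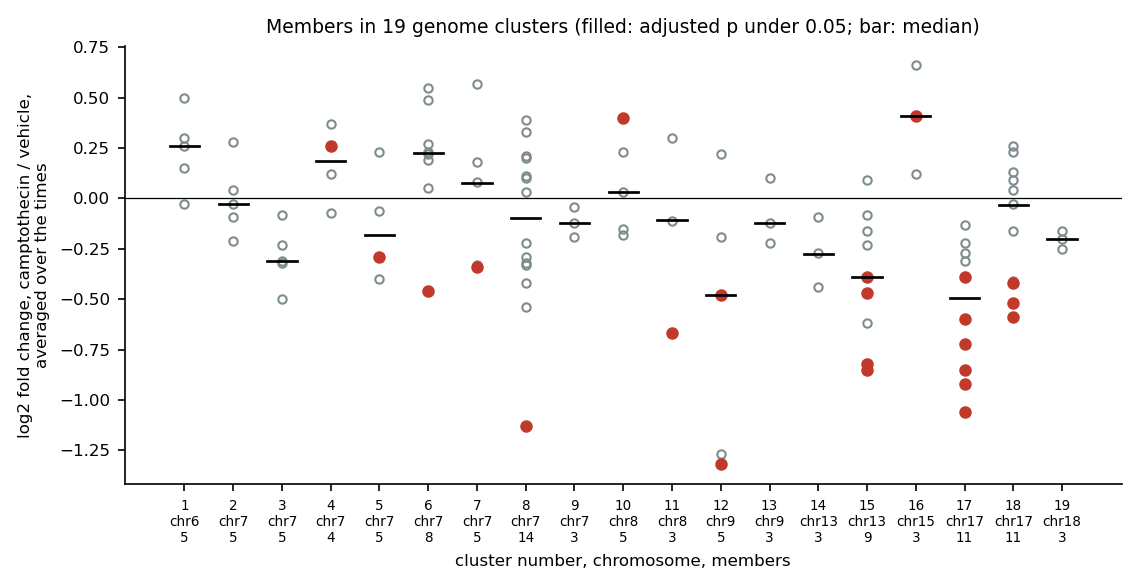
Average log2 fold change of camptothecin over vehicle (vertical axis) for each tested member of the 19 genome clusters (horizontal axis, labelled with cluster number, chromosome and number of members), red and filled where adjusted p was under 0.05, with a bar at each cluster's median. All points of cluster 17 on chromosome 17 lie below 0, with 6 of 10 called, and those of cluster 16 on chromosome 15 lie above 0.

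RefSeq promoters (GRCm38.p6, 250 bases before to 50 after the start) matched 201 members, 164 of them with a start within 500 bases of the counted transcript's 5′ end. The 150 bases before the start are shown, on the gene's strand, for 3 of the members that fell at both 18 h and 36 h and for Zfp651, which rose at 36 h. Capitals mark the motifs CCAAT and GGGCGG, on either strand. Of the members not shown, Zfp207 held neither motif in these 150 bases, Zfp157 held CCAAT and Zfp945 held GGGCGG. Zfp940, which also rose at 36 h, held CCAAT.
Zfp26 (chr9:20460161-20460310, minus strand): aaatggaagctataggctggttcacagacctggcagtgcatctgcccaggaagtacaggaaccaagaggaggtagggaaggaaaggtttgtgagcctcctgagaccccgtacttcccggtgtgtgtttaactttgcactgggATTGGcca
Zfp820 (chr17:21845760-21845909, minus strand): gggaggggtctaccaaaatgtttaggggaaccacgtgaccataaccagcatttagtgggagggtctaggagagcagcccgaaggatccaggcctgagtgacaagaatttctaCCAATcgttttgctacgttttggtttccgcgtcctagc
Zfp943 (chr17:21962409-21962558, plus strand): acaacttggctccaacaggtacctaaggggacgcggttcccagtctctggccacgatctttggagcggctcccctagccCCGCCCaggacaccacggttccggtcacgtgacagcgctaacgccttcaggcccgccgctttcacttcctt
Zfp651 (chr9:121759883-121760032, plus strand): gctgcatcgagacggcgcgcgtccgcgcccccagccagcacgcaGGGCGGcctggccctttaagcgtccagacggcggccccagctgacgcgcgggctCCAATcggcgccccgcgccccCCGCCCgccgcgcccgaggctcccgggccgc
Over the whole window of 300 bases and on both strands, CCAAT was found in 51.2% of the 164 members' promoters, in 54.5% of those of 33 members that fell in the average, and in 37.4% of all 32851 promoters. For GGGCGG the shares were 50%, 45.5% and 35.7%, and for TATAAA 6.1%, 6.1% and 13.6%. The AP-1 type motif TGANTCA was in 3.7% of members' promoters, in 6.1% of those that fell and in 7.8% of all. The CRE motif TGACGTCA was in 3%, 0% and 1.8%. The sets also differed in base composition. Median counts of CG pairs were 15.5 in members' promoters, 12 in those that fell and 7 in all, with median GC contents of 54.8%, 53% and 52.7%. All promoters means every RefSeq promoter, not only those of tested genes. The part of composition in the motif shares was not tested. A match describes the letters only and says nothing of a factor's binding.

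Lists of members with known roles were read beside the 7.69% of all transcripts called lower and 2.59% called higher in the average. In the list of RNA-binding and ribosome-linked members, 2 of 10 tested fell in the average and 0 rose (Zfp207 and Zfp638; median 0.056). Zfp36, tristetraprolin, which destabilises AU-rich messengers, had 0.28 ± 0.12 (adjusted p = 0.144). Zfp598, a ubiquitin ligase for collided ribosomes, had 0.25 ± 0.13 (adjusted p = 0.233), and Zfp622, a factor of large ribosomal subunit maturation, had 0.16 ± 0.09 (adjusted p = 0.319). Zfp346, a binder of double-stranded RNA, had 0.27 ± 0.15 (adjusted p = 0.296), and Zfp106 had 0.14 ± 0.07 (adjusted p = 0.213).

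In the list for imprinting and retroelements, 0 of 6 tested members passed in the average (edgeR; 1 of 6 with unadjusted p under 0.05), and the median was 0.114. Zfp445, which guards imprinted loci, had -0.21 ± 0.07 (adjusted p = 0.0537), the closest to the threshold. Zfp57, which maintains imprints in the early embryo, was near the bottom of the family at 0.115 to 4.69 CPM. Zfp809, which silences retroviruses through their primer binding site, had 0.10 ± 0.10, and Zfp568, a repressor of a placental Igf2 transcript, had 0.20 ± 0.21, with adjusted p of 0.602 and 0.611.

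In the list for neural development, 1 of 8 tested members fell in the average (Zfp503) and 0 rose. Zfp521, an early neural transcription factor, had 72.4 to 77.8 CPM in camptothecin ganglia at 36 h, against 69.2 to 87.4 CPM in vehicle ganglia, and an average change of -0.06 ± 0.07. Zfp462, a guard of heterochromatin, had -0.10 ± 0.07, Zfp609, a partner of the cohesin loader, had 0.12 ± 0.06, and Zfp148 had -0.16 ± 0.07. Zfp536, a brake on neuronal differentiation, had -0.14 ± 0.15 and Zfp608 had 0.03 ± 0.08. Adjusted p for these 6 lay between 0.177 and 0.88. Zfp110, which binds the p75 neurotrophin receptor of sensory neurons, had -0.06 ± 0.20 (adjusted p = 0.89), Zfp131 had -0.02 ± 0.21 (adjusted p = 0.972), and the abundant Zfp91 had -0.02 ± 0.07 (adjusted p = 0.927). Zfp871 and Zfp706, at the top of the family by level, had -0.16 ± 0.07 and 0.10 ± 0.08 (adjusted p = 0.136 and 0.49). With the GC correction the values of Zfp131, Zfp148 and Zfp871 lay above 0, and none was called.

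The partners through which KRAB proteins repress were measured beside them. Of 15 tested genes on a list of KRAB corepressors and chromatin partners, 1 fell in the average and at 36 h and 0 rose (edgeR), or 6.67%, against 7.69% and 2.32% of all transcripts called lower, with a median of 0.030 in the average. Another 8 genes of that list, Dnmt1 and Tasor among them, were not analysed here. The 1 was Mphosph8, the chromodomain subunit of the HUSH silencing complex, with -0.65 ± 0.10 in the average (adjusted p = 0.000173) and -0.87 ± 0.18 at 36 h (adjusted p = 0.0104). Its values with the GC correction are not given here. Trim28 had 0.29 ± 0.16 (adjusted p = 0.281) and Setdb1 -0.27 ± 0.46 (adjusted p = 0.779). The group means of Setdb1 were low, at 2.01 to 4.26 CPM. The heterochromatin proteins Cbx5 and Cbx1 had -0.23 ± 0.08 and -0.14 ± 0.08 (adjusted p = 0.0675 and 0.289). Hdac1 had 0.35 ± 0.14, Atf7ip 0.23 ± 0.08 and Smarcad1 -0.20 ± 0.07, with adjusted p of 0.126, 0.0859 and 0.0887, and the remaining 7 genes of the list lay between -0.08 and 0.25. Among these, Chd3, Chd4 and Pphln1 had low group means of 0.884 to 3.53 CPM.

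Several transcripts were in the table for 51 of the 250 symbols. Of 62 tested transcripts other than the counted one, 9 fell in the average (14.5%, against 7.69% of all transcripts) and 0 rose. Of these, 4 were among 19 annotated with a retained intron and 5 among 43 of other types (2 of Zfp207 and 1 each of Zfp329, Zfp738 and Zfp943). The 9 had GC contents between 34.3% and 45.3%. In the quartile poorest in G and C, up to 43.9%, 20.4% of all transcripts were called lower in the average. The 9 calls are not given with the GC correction here. Minor transcripts of Zfp169, Zfp407 and Zfp748, annotated with retained introns, fell in the average by 1.43 ± 0.34, 1.23 ± 0.35 and 1.44 ± 0.41 on the log2 scale (adjusted p = 0.00855, 0.0241 and 0.026), while the members of these symbols did not pass. Zfp945 also had a transcript with a retained intron that fell by 0.66 ± 0.21 (adjusted p = 0.042), beside its counted coding form. A further coding transcript of Zfp945 had 0.60 ± 0.31, and a further one with a retained intron had -0.22 ± 0.31 (adjusted p = 0.247 and 0.724). The other transcripts of Zfp560, Zfp367 and Zfp655 had 0.18 ± 0.16, 0.27 ± 0.48 and 0.23 ± 0.24. That of Zfp26 had -0.47 ± 0.25. Adjusted p for these lay between 0.258 and 0.788. These transcripts were chosen after their values were seen.

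In the test of the drug effect at 36 h minus that at 18 h, 0 members were called in either direction (edgeR; 8 higher and 7 lower with unadjusted p under 0.05; DESeq2 called 0), against 0.0107% of all transcripts higher and 0% lower. Zfp651 (1.06 ± 0.32), Zfp39 (0.87 ± 0.28) and Zfp940 (1.40 ± 0.47) had the smallest p on the higher side and Zfp3, Zfp646 and Zfp639 on the lower side, all with an adjusted p of 0.986. Over all 18606 transcripts, 921 had an unadjusted p under 0.05 in this test.

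Over time within an arm, few members passed. In vehicle ganglia, 36 h against 18 h, 0 members were called (edgeR; 10 higher and 10 lower with unadjusted p under 0.05; DESeq2 called 2 higher), while 1.01% of all transcripts rose and 0.43% fell. Zfp646, Zfp697 and Zfp3 came first on the higher side with 0.70 ± 0.22, 1.37 ± 0.43 and 0.96 ± 0.31 (adjusted p = 0.128, 0.132 and 0.151), and Zfp940 on the lower side with means of 4.22 CPM at 36 h and 8.71 CPM at 18 h (adjusted p = 0.203). In camptothecin ganglia, 36 h against 18 h, 1 member fell and 0 rose (12 higher and 8 lower with unadjusted p under 0.05; DESeq2 called 1 higher and 2 lower), against 0.15% and 0.36% of all transcripts. That member, Zfp142, had 3.84, 3.94 and 4.75 CPM at 36 h, against 12.4, 11.0 and 8.12 CPM at 18 h, without overlap (-1.33 ± 0.27, adjusted p = 0.0237). It was not called without camptothecin 18 h replicate 2 or 3 or without any 1 of the camptothecin 36 h libraries. Zfp51, a KRAB member of the chromosome 17 cluster, came next with 0.63 ± 0.16 (adjusted p = 0.0855). Over all 18606 transcripts, unadjusted p lay under 0.05 for 2192 in the vehicle comparison and 2083 in the camptothecin comparison.

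Cell composition, as far as marker genes show it, was that of a ganglion. Of 16 sensory neuron markers 15 were in the table, and their summed level was 21652 to 33742 CPM in camptothecin libraries, against 25804 to 33355 CPM in vehicle libraries. Macrophage markers summed to 7.12 to 17.7 CPM and 8.63 to 18.6 CPM, and satellite glia markers to 1165 to 1793 CPM and 939 to 1682 CPM, in camptothecin and vehicle libraries. At 18 h the macrophage sum was 7.12 to 9.04 CPM in camptothecin ganglia, against 12.3 to 17.5 CPM in vehicle ganglia, and 0 macrophage markers were called (edgeR). The neuron sum was 31018 to 33742 CPM in camptothecin ganglia at 18 h, against 26844 to 28989 CPM in vehicle ganglia. Of the 15 neuron markers 2 were called higher and 1 lower at 18 h, and 0 higher and 1 lower at 36 h, so they did not move as 1 set. At 36 h the neuron sum was 21652 to 25136 CPM in camptothecin ganglia, against 25804 to 26007 CPM in vehicle ganglia, and the sum of 4 fibroblast markers was 798 to 1020 CPM in camptothecin ganglia, against 587 to 715 CPM in vehicle ganglia, with 1 of the 4 called higher. Of 7 Schwann cell markers 1 was called higher at 36 h. The summed red cell markers were 2.96 to 10.2 CPM in camptothecin ganglia at 36 h, against 28.3 to 77.8 CPM in vehicle ganglia, and 3 of 4 of them fell there. The part of cell composition in the members' changes was not tested.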

How the data were processed

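RNA of whole ganglia from 6 groups was sequenced; 24 samples are labelled, 19 had columns, and 5 were not analysed here. The tools named, per the submitters' processing notes, are CASAVA 1.8.2 and limma, with build mm10. Aligner and counter: not given in the sources used here. Deposited by the authors were a raw count per transcript and sample, log2-scale values, and log2 fold changes with adjusted p-values. Column letters had no legend: the deposited log2 fold changes, headed camptothecin against vehicle, equalled B minus A columns, so A was read as vehicle. No label ties a sample to its own animal, so each p-value reflects only sample-to-sample spread, possibly technical.

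The test was edgeR 4.0.16 under R 4.3.3 (filterByExpr, min.count 10, min.total.count 15; TMM; 1 quasi-likelihood fit of 6 group means; 13 residual degrees of freedom; contrasts as named; two-sided, Benjamini-Hochberg over all tested transcripts, threshold 0.05) and checked on simulated data. SE is the log2 fold change over the root of F. CPM uses TMM-scaled totals. Transcripts without a symbol (0.501% to 0.568% of counts) stayed in the totals. Coordinates, GC content and coding patterns are from GENCODE M21 (GRCm38). The first KRAB pattern found 80 members; a wider one, added after the sequences were read, found 110. Alternatives were DESeq2 1.42.0, no filter, a lowess GC offset, thinning, the replicate number as block, libraries left out, and transcripts summed per symbol.

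Members, lists and tests were chosen with earlier results of these data known. Named were up to 5 largest rises and falls among called members per comparison, the 3 smallest p where fewer than 3 passed, the 5 highest levels and a preset list. Of that list Zfp42, Zfp281, Zfp423 and Zfp711 were not used here. Other names were chosen after their values were seen. The design allowed for 24 samples and for counts or log2 values; counts of 19 were used.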

Additional observations from a re-analysis of the deposited data

Results flagged for a closer look

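Among the 49 named members tested, in the only group of 4 libraries (camptothecin, 24 h), 4 had 1 library set far apart from the other libraries; chance flags about 1 in 20 groups. Zfp346 had 24.9 CPM in replicate 3, against 13.4 to 14.6 CPM in the rest. Zfp521 had 76 CPM in replicate 1, with the next library at 97.8 CPM. In replicate 3, Zfp820 had 2.46 CPM, with the next at 4.18 CPM, and Zfp959 had 3.17 CPM, with the next at 4.36 CPM.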

How the results depend on the processing

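The counts of members called (8 at 18 h, 0 at 24 h, 16 at 36 h, 44 in the average, 0 for the difference between times, 0 in vehicle and 1 in camptothecin over time) stayed within 1.5 times without the filter and with the replicate number as block (10, 0, 23 and 45 for the first 4). Correlations between the deviations of same-numbered libraries lay between -0.21 and 0.226. With groups of 3 or 4 libraries, they cannot decide whether the numbers pair libraries. The GC correction gave 0 at 18 h, 0 at 36 h, 8 in the average and 2 over time in camptothecin, and the block with the GC correction 2, 7 and 16. DESeq2 gave 26, 4 and 27 at the 3 times, 2 over time in vehicle and 3 in camptothecin. Without all libraries numbered 4 the times gave 14, 3 and 30. Transcripts summed per symbol gave 15 at 18 h, and thinning gave 0 over time in camptothecin. Leaving out 1 library gave 0 to 12 at 18 h, 0 at 24 h, 0 to 27 at 36 h, 37 to 49 in the average and 0 to 1 over time in camptothecin. Shares over all transcripts are given for the main fit and for most counts with the GC correction. Counts of members under the other settings have no such share beside them.

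In the average, uncalled members changed sign. With the GC correction Zfp131 had 0.36, Zfp148 0.17 and Zfp871 0.16, and with the block as well 0.35, 0.16 and 0.16, with Zfp110 at 0.0164. Zfp131 had 0.14 when thinned and 0.0632 without all libraries numbered 4. Leaving out 1 library gave -0.0508 to 0.0305 for Zfp91, -0.18 to 0.0334 for Zfp110, -0.127 to 0.0695 for Zfp131 and -0.00146 to 0.0819 for Zfp608. The GC strata, the GC-corrected counts by location, the tally of minor transcripts, the shared windows, the relation with depth and the wider KRAB pattern were chosen after seeing the data. The causes were not tested beyond each setting's own construction. The depth, and 3 or 4 libraries a group, limit what small changes of the lowest members can show.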
